A study of Mus musculus with 4 samples.

Results

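Cholesterol synthesis, cholesterol uptake and their control by SREBP were followed in 3T3-L1 adipocytes through 28 genes, taken as every probe of the array whose gene name is on a list of sterol genes (Sc4mol, now named Msmo1, included). They were represented by 41 of 55681 probes, and by 28 of the 35019 genes on the array. Total RNA of 3T3-L1, a mouse fibroblast line that can be turned into fat cells in culture, was measured on 1 single-colour Agilent array per group, so that no group has a replicate. All 4 groups were differentiated to adipocytes and then kept for 7 days with daidzein at 25 µM together with PT at 100 µg/ml (daidzein+PT), with daidzein alone at 25 µM, with PT alone at 100 µg/ml, or with the vehicle PBS. Daidzein is a soy isoflavone, and PT is labelled as an extract of pig testis. The labels state neither whether cultures were pooled nor how many were used.

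Cells make cholesterol from acetyl-CoA through the mevalonate pathway, which leads to farnesyl pyrophosphate, then through squalene to lanosterol, and from lanosterol through a series of reductions, oxidations and demethylations to cholesterol. The transcription factor SREBP-2, encoded by Srebf2, turns on the genes of this route when sterols in the endoplasmic reticulum are low. Scap escorts it to the Golgi for cleavage, and the Insig proteins hold Scap back when sterols are plentiful. Cholesterol taken up with lipoproteins is freed in the lysosome by Lipa and leaves it through Npc2 and Npc1, and fat cells keep a large store of free cholesterol.

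The upstream sequences of 4 members are shown because these genes span the pattern of the results: Insig1 and Idi1 had the 2 largest differences for daidzein+PT over PBS, Hmgcs1 acts at the start of the mevalonate pathway and was the only member whose window held the full sterol element searched, and Srebf2 encodes the factor itself and had the most negative difference. Each line gives the 250 bases before the RefSeq start of the gene on GRCm38.p6, 5′ to 3′ on the gene's own strand, which is the plus strand for all 4. Capitals mark, on either strand, the sterol regulatory element TCACNCCAC, the NF-Y box CCAAT, the Sp1 box GGGCGG and the E-box CACGTG. The windows are chr5:28071162-28071411 for Insig1, chr13:8885356-8885605 for Idi1, chr13:119690101-119690350 for Hmgcs1 and chr15:82147019-82147268 for Srebf2.
Insig1: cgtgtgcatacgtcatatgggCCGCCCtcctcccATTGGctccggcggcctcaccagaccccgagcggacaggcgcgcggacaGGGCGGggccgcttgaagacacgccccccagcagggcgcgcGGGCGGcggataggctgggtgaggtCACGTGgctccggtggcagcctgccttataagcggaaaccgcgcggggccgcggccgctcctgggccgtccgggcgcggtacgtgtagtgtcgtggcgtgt
Idi1: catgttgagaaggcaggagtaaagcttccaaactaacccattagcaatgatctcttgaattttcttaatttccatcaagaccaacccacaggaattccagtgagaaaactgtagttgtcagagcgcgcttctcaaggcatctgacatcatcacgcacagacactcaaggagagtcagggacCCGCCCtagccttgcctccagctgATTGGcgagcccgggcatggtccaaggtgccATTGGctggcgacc
Hmgcs1: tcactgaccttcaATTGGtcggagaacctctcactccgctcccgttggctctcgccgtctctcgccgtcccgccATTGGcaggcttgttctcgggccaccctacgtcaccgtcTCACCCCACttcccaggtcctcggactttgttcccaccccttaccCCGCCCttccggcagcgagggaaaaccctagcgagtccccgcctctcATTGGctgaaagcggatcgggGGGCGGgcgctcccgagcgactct
Srebf2: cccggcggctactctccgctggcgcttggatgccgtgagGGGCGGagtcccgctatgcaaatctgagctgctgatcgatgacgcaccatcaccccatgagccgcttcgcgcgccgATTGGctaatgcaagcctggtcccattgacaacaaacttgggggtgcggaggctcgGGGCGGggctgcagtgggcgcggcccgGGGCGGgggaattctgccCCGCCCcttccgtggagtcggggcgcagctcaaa

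Promoter windows of 250 bases before and 50 bases after the start were held for 23 of the 28 members in RefSeq's table (not for Fdps, Fdft1, Sqle, Npc1 and Stard4). A gene with several listed starts (Dhcr7, Insig2 and Scap among those with matches) was counted once if any of its windows held the motif. CCAAT was found in 21 of these 23 genes (91.3%), against 41.1% of all 27025 genes; for Dhcr7 it was only in the third window. GGGCGG was found in 21 of 23 (91.3%), against 38.2% of all genes, and CACGTG in 5 of 23 (21.7%), against 8.09% of all genes. TCACNCCAC was found in 1 member, Hmgcs1, with its first base at position -137 from the start, against 1.44% of all genes. A shortened form, TCACNCCA, which lies within the full one and was searched after the sequences had been seen, was found in 3 of 23 genes (Hmgcs1, Msmo1 and Srebf2; 13%), against 4.97% of all genes. These are matches of letters in a window and were not tested. The shares of all genes take in genes not well above background on these arrays, whereas all members were well above it. The members without GGGCGG were Pmvk and Ggps1, and those without CCAAT were Scap and Acat2.

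All 28 members were well above background on all 4 arrays, as were 18349 genes in all. Signals are given relative to the array's own 75th percentile, so that 1 is the level of that percentile, and they can be compared between arrays for 1 gene but not between genes. With 1 array per group, the spread was taken from the interaction, which is the gap between the PT difference in the presence of daidzein and that in its absence (the first minus the second). Scaled to a log2 difference of 2 arrays, its SD over genes was 0.113, 0.141 and 0.326 in the bright, middle and dim bins of genes by mean signal. An additive limma fit with a daidzein term and a PT term over all 4 arrays, with p-values adjusted by Benjamini-Hochberg over 19673 genes, gave the tests, with 1 residual degree of freedom per gene. Nothing in the labels says that the arrays represent separate cultures, so these p-values do not measure the spread between cultures. The residual of a gene in this fit is its interaction. Its variance was drawn toward that of genes of similar signal, with a median of 47 prior degrees of freedom. The p-values thus weigh an effect mostly against the interactions of other genes. PT and the row of the slide cannot be told apart, nor can daidzein and the position within the row.

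The labelled cell type was checked against its markers: 10 of 10 adipocyte markers were well above background on all 4 arrays. Their summed signal was 1230 on the daidzein+PT array, 741 with daidzein and 318 with PT, against 166 with PBS. The same order of arrays runs through most of the sterol genes below, and the part of the adipocyte markers in those differences was not tested. In RNA of a whole culture, more adipocytes and more RNA per adipocyte cannot be told apart. The 9 preadipocyte and fibroblast markers, all well above background on all 4 arrays, summed to 1250 with daidzein+PT, 1170 with daidzein and 1330 with PT, against 1380 with PBS, sums to which the brightest probes contribute most. Gene by gene, 5 of the 9 were called lower with daidzein, where 7.47% of all genes were. Called higher with daidzein was 1 (Acta2, named after its value was seen), where 9.17% of all genes were. None of the 9 passed for PT, and their median daidzein effect was -0.34. The effects were -0.76 for Ly6a, -0.44 for Thy1, -0.34 for Pdgfra and -0.38 for Dlk1, and their part in the sterol genes' differences was not tested. Macrophage markers were well above background for 4 or 5 of 7 and summed to between 29.5 and 31.8. Most of each sum came from Itgam alone (26.1 to 28.7), and Ptprc and Adgre1 were well above background on none of the arrays.

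Most enzymes of cholesterol synthesis were higher on the treated arrays, and the daidzein+PT array was the highest for nearly all of them. Of the 19 enzymes, 18 had their highest signal with daidzein+PT, against 28.6% of all genes, and the one exception was Ggps1. The order PBS, PT, daidzein, daidzein+PT from low to high held for 15 of the 19 enzymes, against 9.13% of all genes, and for 1 of the 9 control, transport and storage genes, Insig1. The median log2 difference of the 19 enzymes was 0.88 for daidzein+PT over PBS (1.84-fold), 0.43 for daidzein over PBS (1.34-fold) and 0.20 for PT over PBS (1.15-fold). Over all genes the medians of the same differences were -0.04, -0.03 and -0.03. In the additive fit 17 enzymes rose with daidzein (limma, Benjamini-Hochberg), where 9.17% of all genes were called higher, and 12 rose with PT, where 3.16% were. These calls depended on the processing. Under 8 alternative settings the members called higher ran from 0 to 18 for daidzein and from 0 to 15 for PT. The 0 in each range came from the fit without a trend on intensity.

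**Figure D1:**
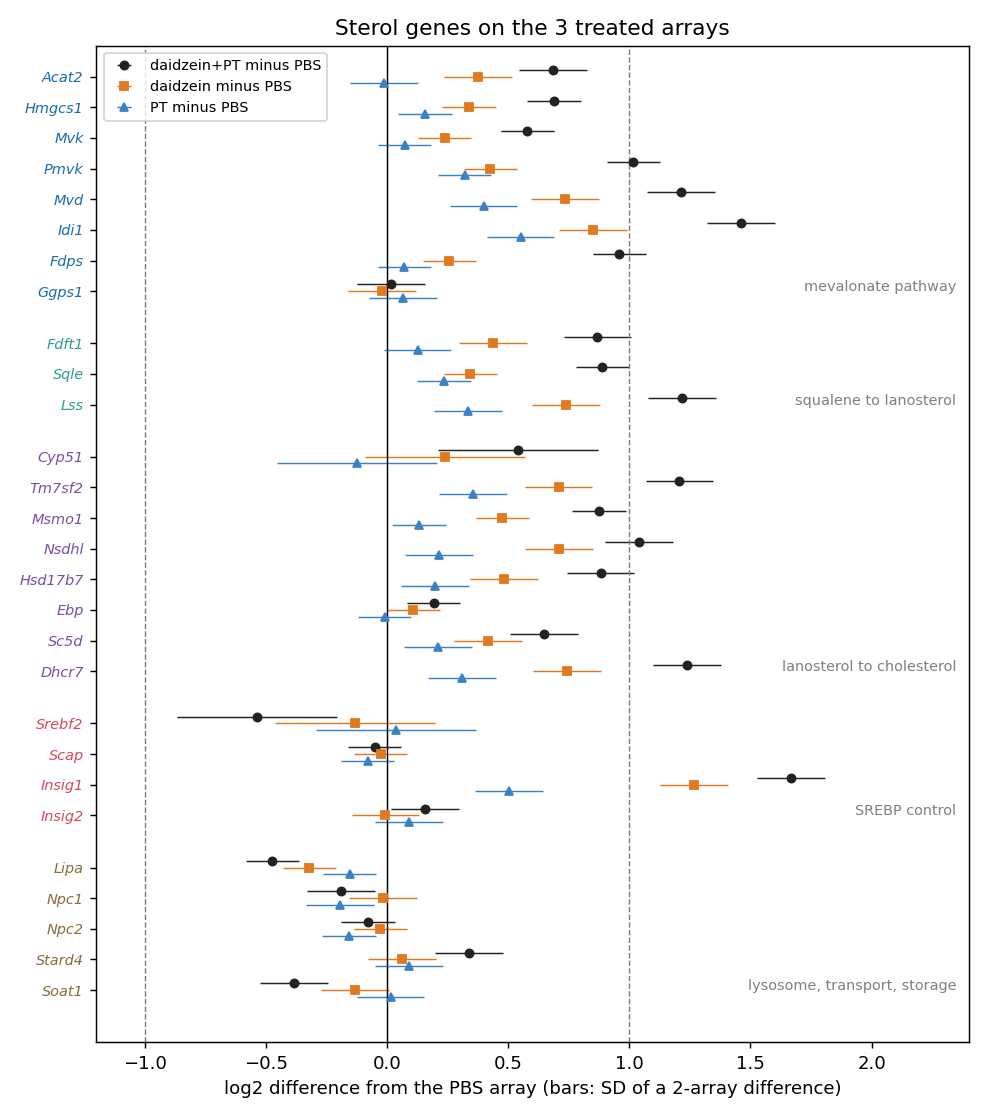
Log2 difference from the PBS array for the 28 sterol genes, ordered by role, with daidzein+PT as circles, daidzein as squares and PT as triangles (1 array each). Bars are the SD of a difference of 2 arrays (0.113, 0.141 or 0.326 by signal bin) and dashed lines mark 2-fold. Most enzymes lie to the right of 0, with the circles farthest right. Of the 9 control, transport and storage genes, only Insig1 and the daidzein+PT circle of Stard4 (0.34) lie clearly to the right of 0.

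In the mevalonate pathway, 7 of 8 enzymes rose with daidzein and 5 of 8 with PT, where 9.17% and 3.16% of all genes did. Idi1, which interconverts the isoprenoid building blocks, had a signal of 7.80 with daidzein+PT, 5.11 with daidzein and 4.15 with PT, against 2.84 with PBS. All 3 treated arrays were above the PBS array, and the combination was the highest. The log2 difference for daidzein+PT over PBS was 1.46 (2.75-fold), and the fitted effects were 0.88 ± 0.07 for daidzein (SE, limma adjusted p = 4.73e-14) and 0.58 ± 0.07 for PT (adjusted p = 4.7e-08).

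Mvd, which decarboxylates mevalonate diphosphate, had 1.87 with daidzein+PT, 1.34 with daidzein and 1.06 with PT, against 0.807 with PBS. Its daidzein effect was 0.78 ± 0.09 (SE, limma adjusted p = 2.46e-09) and its PT effect 0.44 ± 0.09 (adjusted p = 0.00097). Pmvk, the kinase before it, had 18.6 with daidzein+PT, 12.4 with daidzein and 11.5 with PT, against 9.21 with PBS, and both effects were called, at 0.56 for daidzein and 0.46 for PT. The single treatments of Pmvk lay at log2 differences over PBS of 0.43 for daidzein and 0.32 for PT, a gap smaller than the SD of a difference in its bin.

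Fdps, which makes farnesyl pyrophosphate, had 17.5 with daidzein+PT, 10.8 with daidzein and 9.46 with PT, against 9.01 with PBS. The single treatments lay at log2 differences over PBS of 0.26 for daidzein and 0.07 for PT, while the combination lay at 0.96. The daidzein difference exceeded the SD of a difference among bright genes, 0.113, and the PT difference did not. Its interaction, 0.63, was the most positive among the 28 genes, beside an SD of the interaction of 0.16 among bright genes. Both of its fitted effects were called (0.57 for daidzein and 0.39 for PT), although the additive model takes that interaction as error, and its PT call was lost under 6 of 8 alternative settings.

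Hmgcs1, which condenses acetoacetyl-CoA to HMG-CoA and whose upstream sequence holds TCACNCCAC, had 32.8 with daidzein+PT, 25.8 with daidzein and 22.7 with PT, against 20.4 with PBS. The order was the common one, with a log2 difference of 0.69 for daidzein+PT over PBS. Its daidzein effect was 0.44 ± 0.08 (SE, limma adjusted p = 1.49e-05) and its PT effect 0.25 ± 0.08 (adjusted p = 0.0437). The PT call was lost under 7 of 8 alternative settings and the daidzein call under 2 of 8. A second Hmgcs1 probe was not above background on any array, and averaging it in turned the daidzein over PBS difference to -0.19 and the PT over PBS difference to -0.16.

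Mvk, the mevalonate kinase, and Acat2, the cytosolic thiolase that supplies acetoacetyl-CoA, were called for daidzein and did not pass for PT. Mvk had 18.3 with daidzein+PT, 14.5 with daidzein and 12.9 with PT, against 12.3 with PBS, with effects of 0.37 for daidzein and 0.21 for PT (adjusted p = 0.134). Acat2 had 2.17 with daidzein+PT, 1.75 with daidzein and 1.34 with PT, against 1.35 with PBS, with effects of 0.54 for daidzein and 0.15 for PT (adjusted p = 0.583). Whether the PT effect of these 2 genes differs from that of the other enzymes was not tested.

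Ggps1, which leads farnesyl pyrophosphate away from sterols toward protein prenylation, had 2.14 with daidzein+PT, 2.09 with daidzein and 2.21 with PT, against 2.12 with PBS. Its log2 differences from PBS lay between -0.02 and 0.06, and neither effect passed the test (adjusted p = 0.849 for daidzein and 0.934 for PT). The differences for daidzein+PT over PBS from the 3 Ggps1 probes were -0.24, 0.01 and 0.17. Its upstream window holds CCAAT but none of the other motifs, and so does that of Pmvk, which was called for both treatments. The part of the motifs in the differences was not tested.

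All 3 enzymes from farnesyl pyrophosphate to lanosterol rose with both treatments, where 9.17% of all genes did with daidzein and 3.16% with PT. Their PT calls were lost under 6 (Fdft1), 5 (Lss) and 4 (Sqle) of 8 alternative settings. Lss, which cyclises oxidosqualene to lanosterol, had 1.83 with daidzein+PT, 1.31 with daidzein and 0.992 with PT, against 0.787 with PBS. Its log2 difference for daidzein+PT over PBS was 1.22 (2.33-fold), with effects of 0.81 ± 0.09 for daidzein (SE, limma adjusted p = 1.04e-09) and 0.41 ± 0.09 for PT (adjusted p = 0.00308).

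Sqle, the squalene epoxidase, had 24.1 with daidzein+PT, 16.5 with daidzein and 15.3 with PT, against 13.0 with PBS. Fdft1, the squalene synthase, had 5.57 with daidzein+PT, 4.13 with daidzein and 3.33 with PT, against 3.05 with PBS. Both genes were about 0.9 log2 units above PBS with the combination (0.89 and 0.87) and less than 0.5 above it with either treatment alone. Their interactions were 0.31 each. A second Fdft1 probe was not above background on any array, and averaging it in turned the PT over PBS difference, 0.13, to -0.27.

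From lanosterol to cholesterol, 7 of 8 enzymes rose with daidzein and 4 of 8 with PT, where 9.17% and 3.16% of all genes did. Dhcr7, which reduces 7-dehydrocholesterol in the last step, had 4.91 with daidzein+PT, 3.48 with daidzein and 2.58 with PT, against 2.08 with PBS. The 4 arrays again ran in the order PBS, PT, daidzein, daidzein+PT. Its log2 difference for the combination over PBS was 1.24, and its effects were 0.84 ± 0.08 for daidzein (SE, limma adjusted p = 1.77e-12) and 0.40 ± 0.08 for PT (adjusted p = 0.000268).

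Tm7sf2, a sterol reductase that acts after the first demethylation, had 5.82 with daidzein+PT, 4.12 with daidzein and 3.22 with PT, against 2.52 with PBS. Its second probe gave nearly the same difference for daidzein+PT over PBS (1.24 against 1.21). Nsdhl, a dehydrogenase of the demethylation complex, had 2.84 with daidzein+PT, 2.26 with daidzein and 1.60 with PT, against 1.38 with PBS. The 2 Nsdhl probes differed on PT: the PT over PBS difference was 0.21 on the brighter probe and 0.95 on the other. The interaction was 0.12 on the brighter and -0.43 on the other. That other probe was dim, at 0.109 with PBS and 0.313 with daidzein+PT. Among dim genes the SD was 0.326 for a difference and 0.461 for the interaction. The call of Nsdhl for PT, at an effect of 0.27 (adjusted p = 0.0458), was lost under 7 of 8 alternative settings.

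Msmo1, the methyl sterol oxidase that acts with Nsdhl, had 29.4 with daidzein+PT, 22.3 with daidzein and 17.6 with PT, against 16.0 with PBS. Hsd17b7, the ketoreductase of the same complex, had 1.25 with daidzein+PT, 0.947 with daidzein and 0.777 with PT, against 0.678 with PBS. The 2 genes were alike in their differences for the combination over PBS, both 0.88, but only Msmo1 was called for PT (0.27, adjusted p = 0.0305; Hsd17b7, 0.30, adjusted p = 0.0999). Sc5d, the sterol desaturase, had 3.89 with daidzein+PT, 3.31 with daidzein and 2.87 with PT, against 2.48 with PBS, and was called for daidzein (0.43) but not for PT (0.22, adjusted p = 0.104).

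Cyp51, the lanosterol demethylase, was in the dim bin, where the SD of a difference is 0.326. It had 0.448 with daidzein+PT, 0.364 with daidzein and 0.283 with PT, against 0.308 with PBS. Its daidzein effect, 0.45 ± 0.15, passed narrowly (SE, limma adjusted p = 0.0249) and was lost under 7 of the 8 alternative settings. Ebp, the sterol isomerase, had 58.7 with daidzein+PT, 55.4 with daidzein and 51.0 with PT, against 51.4 with PBS, and neither effect passed (0.16, adjusted p = 0.233 for daidzein; 0.04, adjusted p = 0.961 for PT).

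**Figure D2:**
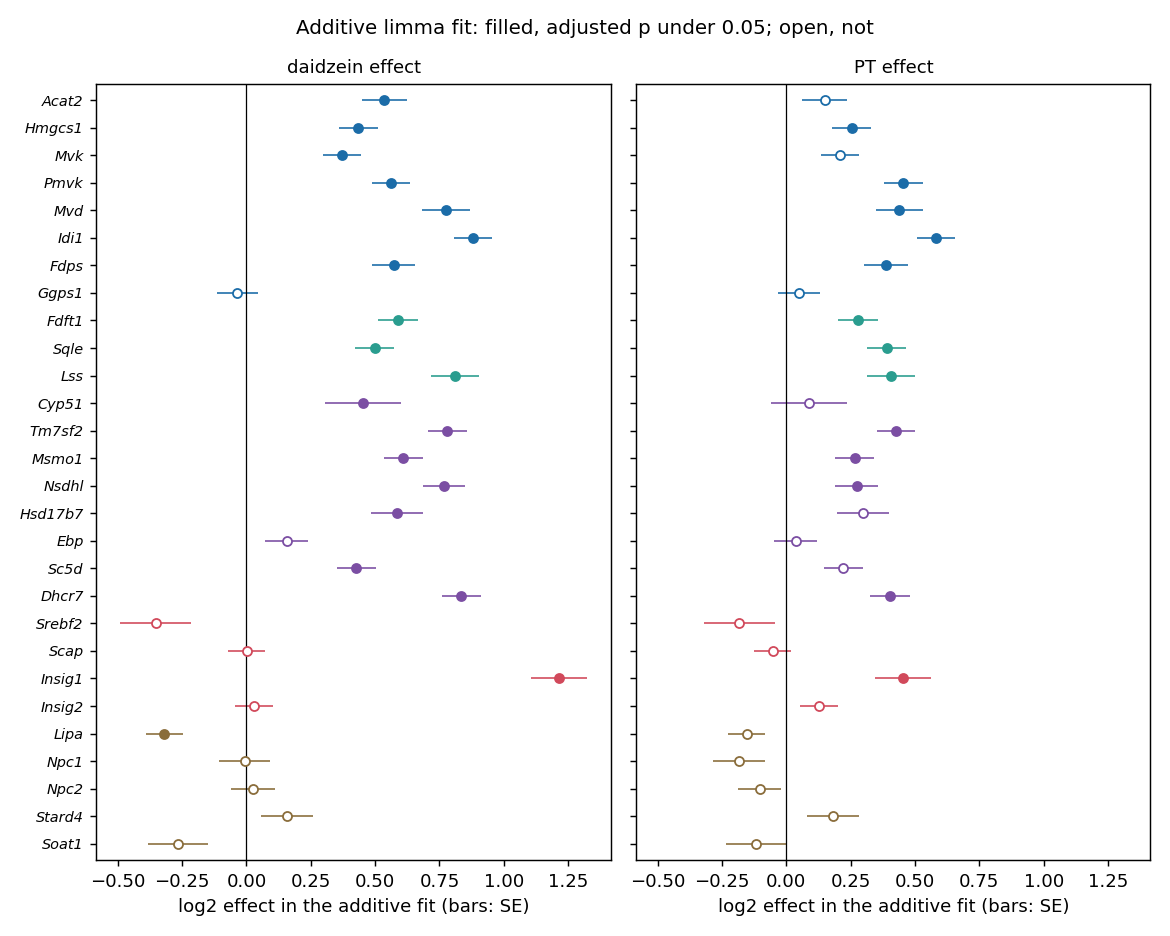
Fitted log2 effects of daidzein (left) and PT (right) for the 28 sterol genes from the additive limma fit on 4 arrays, with bars for the SE and colours for the role. Filled points have an adjusted p under 0.05 and open points do not. The daidzein effects of the enzymes cluster between 0.37 and 0.88 apart from Ggps1 and Ebp, and the PT effects are smaller for every one of them except Ggps1.

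Among the 4 genes of SREBP control, Insig1 was the one that passed the test. Of all genes, 9.17% were called higher for daidzein and 3.16% for PT. Insig1, which retains Scap in the endoplasmic reticulum and is itself a target of SREBP, had 1.22 with daidzein+PT, 0.926 with daidzein and 0.545 with PT, against 0.385 with PBS. It had the largest differences of the 28 genes for daidzein+PT over PBS (1.67, 3.18-fold) and for daidzein over PBS (1.27, 2.41-fold). It rose with daidzein by 1.22 ± 0.11 (SE, limma adjusted p = 5.84e-13) and with PT by 0.45 ± 0.11 (adjusted p = 0.00549). Its interaction was -0.10, within the SD of the interaction among genes of its bin (0.199).

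Insig2, the second retention protein, had 4.59 with daidzein+PT, 4.10 with daidzein and 4.38 with PT, against 4.12 with PBS. Scap had 15.8 with daidzein+PT, 16.1 with daidzein and 15.5 with PT, against 16.4 with PBS. Neither gene passed the test for either treatment, and the log2 differences of Scap from PBS lay between -0.08 and -0.03.

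Srebf2 had 0.302 with daidzein+PT, 0.399 with daidzein and 0.449 with PT, against 0.437 with PBS. It was lowest with the combination, at a log2 difference of -0.54 over PBS, the opposite sign to the enzymes. The gene was in the dim bin, and its effects, -0.35 for daidzein (limma adjusted p = 0.0773) and -0.18 for PT (adjusted p = 0.748), did not pass. The second Srebf2 probe gave a difference of -0.07 for daidzein+PT over PBS. Both probes had an interaction of -0.44, within the SD of the interaction among dim genes (0.461). They reached it differently: on the second probe the single treatments lay above PBS (0.10 for daidzein and 0.28 for PT), while on the first the combination lay below it. The array measures the RNA of Srebf2 and gives no measure of the cleavage of its protein.

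Of the 5 genes that free, carry and store cholesterol, none was called higher and 1, Lipa, was called lower. Of all genes, 9.17% were called higher for daidzein and 3.16% for PT. Lipa, the lysosomal acid lipase that frees cholesterol from its esters, had 10.8 with daidzein+PT, 12.0 with daidzein and 13.4 with PT, against 14.9 with PBS. It fell with daidzein by 0.32 on the log2 scale (SE 0.07, limma adjusted p = 0.000657), where 7.47% of all genes were called lower, and it was the only one of the 28 genes called lower for daidzein. Its PT effect, -0.15, did not pass (adjusted p = 0.36), and its interaction was near 0.

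Npc1, the membrane protein that moves cholesterol out of the lysosome, had 0.832 with daidzein+PT, 0.939 with daidzein and 0.831 with PT, against 0.951 with PBS. Npc2, its soluble partner, had 58.3 with daidzein+PT, 60.4 with daidzein and 55.2 with PT, against 61.5 with PBS. Both were slightly lower with PT, at log2 effects of -0.18 and -0.10, and neither passed (adjusted p = 0.505 and 0.772).

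Stard4, a soluble sterol carrier, had 1.04 with daidzein+PT, 0.862 with daidzein and 0.879 with PT, against 0.826 with PBS. Soat1, which esterifies cholesterol for storage, had 0.506 with daidzein+PT, 0.602 with daidzein and 0.666 with PT, against 0.660 with PBS. Stard4 was highest and Soat1 lowest with the combination, and neither passed for either treatment (limma adjusted p = 0.356 and 0.121 for daidzein). A second, dimmer Stard4 probe was highest with daidzein alone, at 0.0889 against 0.0834 with daidzein+PT. Its interaction was -0.18, against 0.19 on the brighter probe.

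The members' counts past a fixed fold were set beside the same share over all genes. At 2-fold or more over PBS, 8 members were higher with daidzein+PT (2.5% of all genes were), 1 with daidzein (1.1% of all genes) and 0 with PT (0.857% of all genes). At 1.5-fold or more over PBS, 16 were higher with daidzein+PT (5.94% of all genes), 7 with daidzein (3.13%) and 0 with PT (2.59%). The 8 at 2-fold with the combination were Insig1, Idi1, Dhcr7, Lss, Mvd, Tm7sf2, Nsdhl and Pmvk. Under the alternative settings that count ran from 6 to 9. With normexp background correction Nsdhl and Pmvk fell below 2-fold, at log2 differences of 0.953 and 0.988. No member was lower by 1.5-fold or more with any treatment over PBS, where 3.09%, 2.41% and 0.682% of all genes were for daidzein+PT, daidzein and PT. In the 2 comparisons of the combination with a single treatment the count was also 0, where 0.932% of all genes were lower by 1.5-fold or more for daidzein+PT over daidzein and 3.6% for daidzein+PT over PT.

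**Figure D3:**
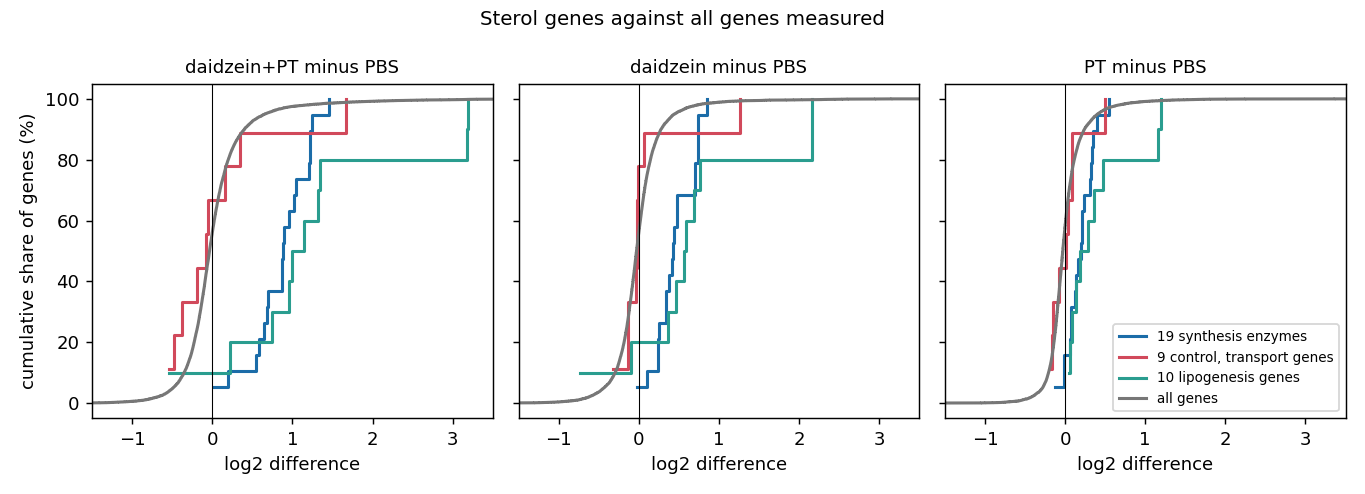
Cumulative share of genes (%) against the log2 difference from PBS for daidzein+PT, daidzein and PT, with 1 array per group. Lines are the 19 synthesis enzymes, the 9 control, transport and storage genes, 10 lipogenesis genes and all genes measured. The enzymes' line lies to the right of that of all genes over most of its course in each panel, with medians of 0.88, 0.43 and 0.20, while the 9 other members have medians of -0.08, -0.03 and 0.01.

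Each treatment could also be read in a second pair of arrays, which shares no array with the first. The daidzein difference in the presence of PT (daidzein+PT over PT) had a median of 0.66 over the members and 0.70 over the enzymes, against -0.01 over all genes. At 1.5-fold or more, 15 members were higher in that pair (5.07% of all genes), and 1 at 2-fold or more (Insig1; 2.1% of all genes, with 0 members under normexp background correction). The PT difference in the presence of daidzein (daidzein+PT over daidzein) had a median of 0.34 over the members and 0.40 over the enzymes, against 0.00 over all genes. At 1.5-fold or more, 3 members were higher in that pair (Fdps, Idi1 and Pmvk; 3.15% of all genes), and 0 at 2-fold or more (1.05% of all genes).

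For 18 of the 19 enzymes the interaction was above 0, with a median of 0.19. The interaction of all genes was not centred on 0 either: its median was 0.08 among bright genes, of which 72.4% were above 0, and 0.02 among middle genes, of which 54% were. The members' median interaction was 0.13 on the scaling used and 0.08 when the percentile was taken over probes well above background on all arrays, a scaling under which the median of all genes was -0.02. With 1 array per group the interaction has no test, and it cannot be told apart from inner against outer positions of the arrays on the slide.

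**Figure D4:**
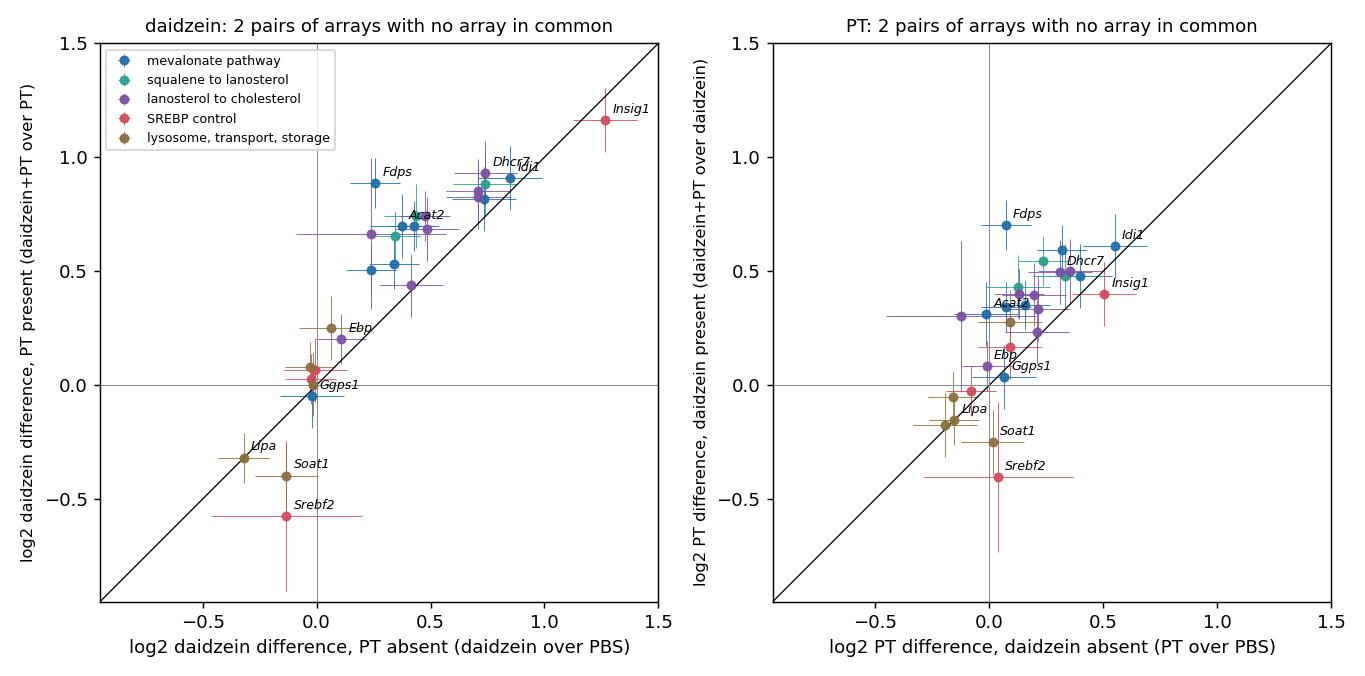
The log2 difference of each treatment in its 2 pairs of arrays, for daidzein (left) and PT (right), with the other treatment absent on the x axis and present on the y axis. Points are the 28 genes coloured by role, bars the SD of a difference of 2 arrays, and the diagonal marks equal differences. The vertical distance of a gene from the diagonal is its interaction, which is the same value in both panels by definition. Most enzymes lie above the diagonal, Fdps farthest (0.63), and Srebf2 farthest below it (-0.44).

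Counted over all 28 members, 18 rose and 1 fell with daidzein, where 9.17% and 7.47% of all genes did. With PT 13 rose and 0 fell, where 3.16% and 0.808% of all genes did. The calls rested on the intensity trend of the limma fit: without it no member was called for either treatment, and of all genes 65 were called higher and 4 lower for daidzein, and 11 higher and 1 lower for PT. Single PT calls were lost under 1 of 8 settings for Idi1 and Pmvk, 2 for Tm7sf2, 4 for Mvd and Dhcr7, and 6 for Msmo1 and Insig1, while daidzein calls other than those of Cyp51 (7 settings), Hmgcs1 and Fdft1 (2 each) were lost under 1, the fit without the trend. The count for PT ran from 2 to 15 over the other settings (over all genes 622 higher and 159 lower, and 185 and 20 after quantile normalization), while that for daidzein ran from 15 to 18.

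Further genes of sterol handling, 28 in a list chosen as related to the pathway, mostly did not pass the test. Soat2 and Cyp27a1 were not well above background on enough arrays. Of the 26 fitted, 6 rose and 1 fell with daidzein, where 9.17% and 7.47% of all genes did. With PT 3 rose and 0 fell, where 3.16% and 0.808% of all genes did. The median log2 difference of these 26 genes for daidzein+PT over PBS was 0.00, against 0.69 for the 28 members. Scarb1, the receptor that takes up cholesterol esters from HDL, had 2.10 with daidzein+PT, 1.38 with daidzein and 0.889 with PT, against 0.699 with PBS, and rose with both treatments (1.11 for daidzein, limma adjusted p = 1.23e-13; 0.48 for PT, adjusted p = 0.00042).

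Gramd1b, a carrier of cholesterol from the plasma membrane, had 12.4 with daidzein+PT, 8.18 with daidzein and 8.79 with PT, against 7.03 with PBS, and rose with both (0.36 and 0.46). Srebf1, which encodes the SREBP of fatty acid synthesis, had 0.459 with daidzein+PT, 0.409 with daidzein and 0.345 with PT, against 0.264 with PBS, and rose with daidzein (0.52, limma adjusted p = 0.00579) but did not pass for PT (0.28, adjusted p = 0.448). Nceh1, a cholesterol ester hydrolase named after its value was seen, was the gene of this list that fell with daidzein, by 0.53 on the log2 scale (limma adjusted p = 8.19e-07).

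Lipogenesis genes, which share SREBP control in part, had larger differences in some members. Of 10, 8 rose and 1 fell (Elovl6, named after its value was seen) with daidzein, where 9.17% and 7.47% of all genes did. With PT 7 rose and 0 fell, where 3.16% and 0.808% of all genes did. Scd1, the stearoyl-CoA desaturase, had 119 with daidzein+PT, 58.7 with daidzein and 29.9 with PT, against 13.1 with PBS. Fasn, the fatty acid synthase, had 1.65 with daidzein+PT, 1.05 with daidzein and 0.903 with PT, against 0.650 with PBS. The list's median for daidzein+PT over PBS was 1.07, against 0.88 for the sterol enzymes and 3.31 for the 10 adipocyte markers, of which Adipoq had 142 with daidzein+PT, 79.6 with daidzein and 33.7 with PT, against 16.0 with PBS.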

How the data were processed

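RNA of 4 groups was measured on 1 single-colour array each, all on 1 slide, per the labels and file headers. The deposited spot intensity is on the linear scale, background-subtracted and detrended within the array by Agilent Feature Extraction, per the file headers (version 10.7.1.1, or 9.5.1.1 per the submitters' processing notes). The raw mean and local background intensity are deposited as well and were used as an alternative. The deposited series table is a linear intensity too, whose values look quantile normalized.

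Control spots and outlier spots (106 to 173 an array) were left out. The log2 processed signal was reduced by the array's 75th percentile (361 to 419, over 59305 non-control spots less outliers), replicate spots were averaged, and a gene took its probe with the highest mean signal. The percentile was first taken over probes and was changed to spots, the unit of the deposited signal, after values and calls under it had been seen. That change raised the members called for PT to 13, against 11 over probes; both are given. Genes had to be well above background on both arrays of a comparison, or on at least 2 arrays for the fit. No spot was saturated. The number of arrays, 1 per group, limits precision.

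The fit used limma 3.58.1 in R 4.3.3 (lmFit, then eBayes with a trend on intensity, with Benjamini-Hochberg adjustment and a threshold of 0.05) and was tested on simulated data. Of 55681 probes, 27235 had an accession in RefSeq's gene table (GRCm38.p6, names only) and 2838 were renamed. The members and the other gene lists were chosen with earlier results of these data known. All 28 members are named, and of each other list up to 4 genes with the largest difference for daidzein+PT over PBS, with Adipoq; 1 gene that this rule selects is not reported here. Alternatives were normexp background correction (offset 50), quantile normalization, the percentile over detected probes, the series table, the mean over a gene's probes, no filter on dim probes and no intensity trend; the percentile over probes was added after seeing the data.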

Additional observations from a re-analysis of the deposited data

Results flagged for a closer look

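For 3 genes the PT difference had opposite signs without and with daidzein, and at least 1 of the 2 differences exceeded the SD of a difference of 2 arrays; that size condition was set after values were seen, and with 1 array per group the difference between the pairs was not tested. Srebf2 had a PT difference of -0.40 with daidzein and 0.04 without it, an interaction of -0.44. Acat2 had 0.31 with daidzein and -0.01 without it, an interaction of 0.32. Soat1 had -0.25 with daidzein and 0.01 without it, an interaction of -0.27. In each of the 3 genes the PT difference without daidzein was close to 0, so that its sign is within the spread.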

How the results depend on the processing

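No paired analysis was possible because each group has 1 array and the labels give no replicate numbers, and for the same reason no array could be left out. No called effect and no difference of 1.5-fold or more changed sign under the 8 alternatives. Smaller differences and interactions of single members changed sign in 41 instances, in 2 of which both values exceeded the SD of a difference: with all probes averaged, Hmgcs1 went to -0.19 for daidzein over PBS, against 0.34, and to -0.16 for PT over PBS, against 0.16. Members called higher for PT numbered 13, against 6 with normexp background correction, 3 with quantile normalization, 7 with the percentile over probes well above background on all arrays, 3 with the series table, 2 with all probes of a gene averaged and 0 without the intensity trend; with the percentile over probes, chosen after seeing the data, they numbered 11. Members called higher for daidzein numbered 18, against 0 without the trend. Members at 2-fold for daidzein+PT over PT numbered 1, against 0 with normexp. Over all genes the calls for daidzein were 1804 higher and 1469 lower, against 969 and 634 with the mean over probes and 65 and 4 without the trend. Those for PT were 622 and 159, against 247 and 46 with normexp, 185 and 20 with quantile normalization, 357 and 47 with the percentile over detected probes, 203 and 23 with the series table, 159 and 15 with the mean over probes, 1605 and 419 with no filter, and 11 and 1 without the trend. The cause of these shifts was not tested, except that the mean over probes takes in dim probes of Hmgcs1, Fdft1 and Hsd17b7. Of 448 fitted effects of members under an alternative, 360 stayed on their side of the threshold, 86 no longer passed and 2 newly passed (Mvk and Sc5d for PT with no filter). Of 1176 differences and interactions of single members, 1150 moved by less than the SD of a difference. The members' median difference for daidzein+PT over PBS ran from 0.66 to 0.70. Depth has no counterpart here; signal over background limits Cyp51 and Srebf2, which lie in the dim bin.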
